A study of Rattus norvegicus and Mus musculus with 39 samples.

Results

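The results below describe the testes of adult rats 2 days after mono(2-ethylhexyl) phthalate (MEHP) compared with adult rats given corn oil. The members were chosen by label and level: the 5 adult MEHP libraries and the 7 adult corn-oil libraries, 12 of the 39 libraries of the series, and every rat gene whose base mean, the mean normalized count over all rat libraries, reached 10, which were 13987 of 21654 listed genes. The animals received 700 mg/kg MEHP by oral gavage with corn oil as the carrier, or corn oil alone, and day 2 is the time the labels give. Whole-testis RNA, 2000 ng per library, was read by Tag-seq, a method that sequences a short tag from each transcript rather than its full length. The wider study also held peripubertal rats and peripubertal mice under the same treatments. The labels used here give neither strain nor age in days for the adult rats, and whether each library stands for a separate animal is not said there. A p-value therefore reflects only how far libraries vary. It comes from the authors' fit of all 26 rat libraries, which also takes in the 14 peripubertal ones.

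MEHP is the active metabolite of di(2-ethylhexyl) phthalate, a plasticizer, and its best known target in the testis is the Sertoli cell, which nourishes germ cells, forms the blood-testis barrier and anchors spermatids. In young rodents, injury of Sertoli cells by MEHP is known for collapse of their vimentin filaments, loss of germ cells by apoptosis and entry of macrophages into the tissue. The adult testis consists mostly of germ cells, above all spermatids, with Sertoli, Leydig, peritubular myoid and endothelial cells and resident macrophages around them.

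Effects are the authors' log2 fold changes, MEHP against corn oil, with standard errors (SE). They compare 5 with 7 adult libraries within the authors' fit of all 26 rat libraries. A gene is called where the authors' adjusted p from the two-sided Wald test of DESeq2 is under 0.05. The level of a single group was calculated from the base mean and from the fitted terms. A list member is called measured where its base mean reached 10. The gene lists were chosen with earlier results of these data known, so their called shares are descriptions and not tests. An implied level is not a measured group mean, and no value per library was analysed here. The depth of the libraries is unknown, and precision is set by the SE, whose median over the 13987 genes was 0.13 in the authors' deposited table. The labelled tissue carried its markers: among the 10 genes with the highest implied adult corn-oil level were the spermatid genes Tnp1 (32554), Tnp2 (32386) and Odf1 (22718), and the Sertoli gene Clu stood at 7842 and the Leydig gene Insl3 at 2256. Genes of the epididymis, a tissue that could be taken along, were low, with implied corn-oil levels of 0.48 for Lcn5, 1.02 for Defb1, 4.82 for Crisp1 and 7.94 for Adam7. Just inside the limit on the base mean, the called genes were Calca (10.1), Socs3 (10.2), Spp1 (10.5), Lrrc8e (10.6) and Trpv2 (10.9) in the authors' deposited table. Just outside it, the called genes were Scn3b (8.71) and Sstr3 (8.41), and 6 others called under the limit were Reg3b, Hsd11b2, Tfr2, Ly6h, Gpx2 and Il13ra2, all higher with MEHP in the authors' deposited table.

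The called changes were almost all rises. In the authors' deposited table, 129 genes rose (0.922% of the 13987) and 3 fell (0.0214%). At an unadjusted p under 0.05 the same table held 605 higher genes (4.33%) and 448 lower genes (3.2%). The median log2 fold change over the 13987 genes was -0.03, and 39.3% of them were above 0. The called rises ran from 0.19 for Sin3b, a transcriptional corepressor subunit, to 4.63 for Wnt4, with a median of 0.84 in the authors' deposited table. Among the rises, 51 were of at least 1 on the log2 scale, 8 of at least 2 and 24 of less than 0.5. The 3 genes that fell changed little: Lrrc36 by -0.31 ± 0.07 (adjusted p 0.00382), Tmem131l by -0.27 ± 0.07 (0.0312) and Ccdc188 by -0.29 ± 0.08 (0.0465) in the authors' deposited table. The call of Ccdc188 did not hold with the adjustment over every gene with a p (adjusted p 0.0591). Calls came from every range of level, 19 of 2480 genes at a base mean of 10 to 30, 42 of 3504 at 30 to 100, 45 of 3826 at 100 to 300, 20 of 2972 at 300 to 1000 and 6 of 1205 above 1000. The median rise of the called genes went from 1.46 in the lowest range to 0.36 in the highest, while the median SE of all genes went from 0.29 to 0.07 in the authors' deposited table.

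**Figure D1:**
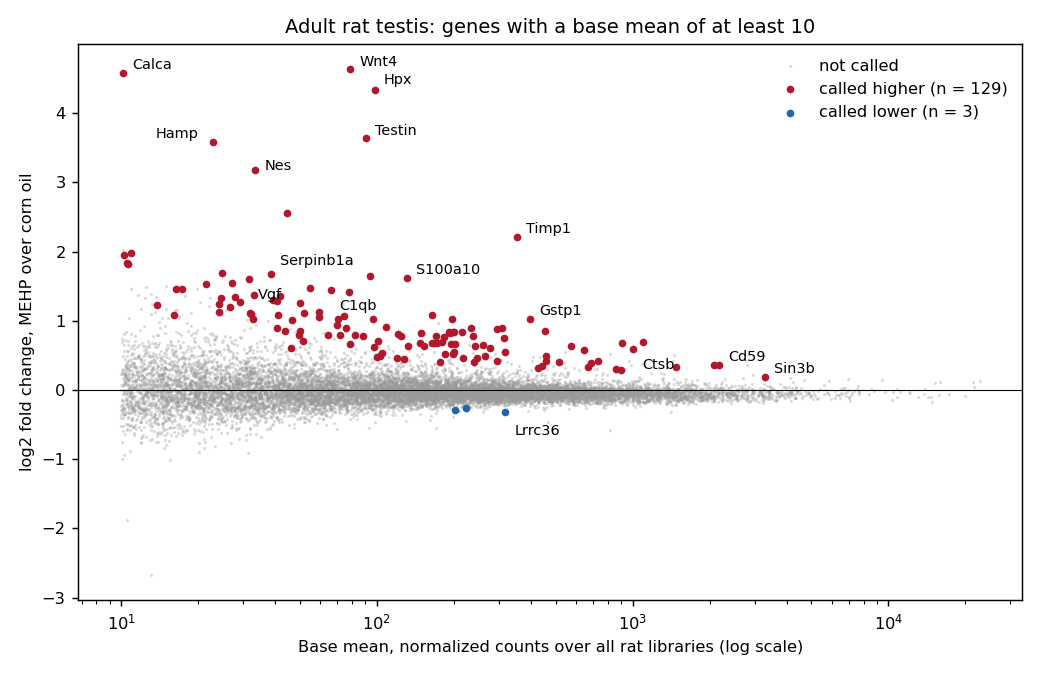
Log2 fold change of MEHP over corn oil against the base mean (normalized counts, log axis) for 13987 genes of the adult rat testis; each point is a gene, red points are the 129 called higher and blue points the 3 called lower. The called points lie above 0 at every level except for the 3 blue ones. Most of the largest rises, such as Wnt4 at 4.63, sit at base means near or under 100, while Timp1 (2.21) sits at 354.

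Most of the largest rises started from low levels in the corn-oil testis. The implied level of Wnt4, a secreted signalling protein needed for early gonad development, was 3.22 with corn oil and 79.8 with MEHP. Hpx, which encodes the plasma heme scavenger hemopexin, was at 13.2 and 267, Testin, a cathepsin L-related protein that Sertoli cells secrete at their junctions, at 14.5 and 180, and Hamp, which encodes the iron hormone hepcidin, at 3.57 and 43.0. Nes, which encodes the intermediate filament protein nestin, went from 6.75 to 61.2, and Tnfrsf12a, the receptor for the cytokine TWEAK, from 7.20 to 42.5. The level of Calca, the calcitonin gene-related peptide precursor, was 0.325 with corn oil and 7.77 with MEHP, so its rise of 4.58 ± 1.09 in the authors' deposited table describes a transcript near the limit of measurement. Of the 129 rises, 15 started from an implied corn-oil level under 10, 69 from 10 to 100 and 45 from at least 100. Genes of the last kind included Timp1, an inhibitor of matrix metalloproteinases (109 and 505), Gstp1, a glutathione transferase (238 and 485), and Ctsb, a lysosomal protease (670 and 1010.5).

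The strictest alternative replaced the normal reference by a t distribution (22 degrees of freedom). With it, 17 of the 124 called genes with an established symbol stayed called under every alternative that covered them. The adjustment over base means of at least 50 covered 88 of the 124, and left out Hamp, Nes, Tnfrsf12a and Cd163. These were Testin, Wnt4, Hamp, Hpx, Nes, Gstp1, Timp1, Ppdpf, S100a10, Tspan4, C1qtnf1, Tnfrsf12a, C1qb, Serping1, Cd163, Gsn and Ece1. The calls of all other genes named below were lost with the t distribution, at an adjusted p of 0.0518 for A2m, for example. Among those not yet introduced, the tetraspanin gene Tspan4 rose by 0.91 ± 0.16 (adjusted p 8.44e-06), the secreted C1q-related protein gene C1qtnf1 by 1.03 ± 0.18 (2.19e-05) and Ppdpf, named as a progenitor cell differentiation factor, by 0.84 ± 0.13 (4.83e-07) in the authors' deposited table. The gene of the actin-severing protein gelsolin, Gsn, rose by 0.61 ± 0.12 (0.000524), and Ece1, which encodes the enzyme that makes endothelin, by 0.76 ± 0.15 (0.000566) in the authors' deposited table.

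**Figure D2:**
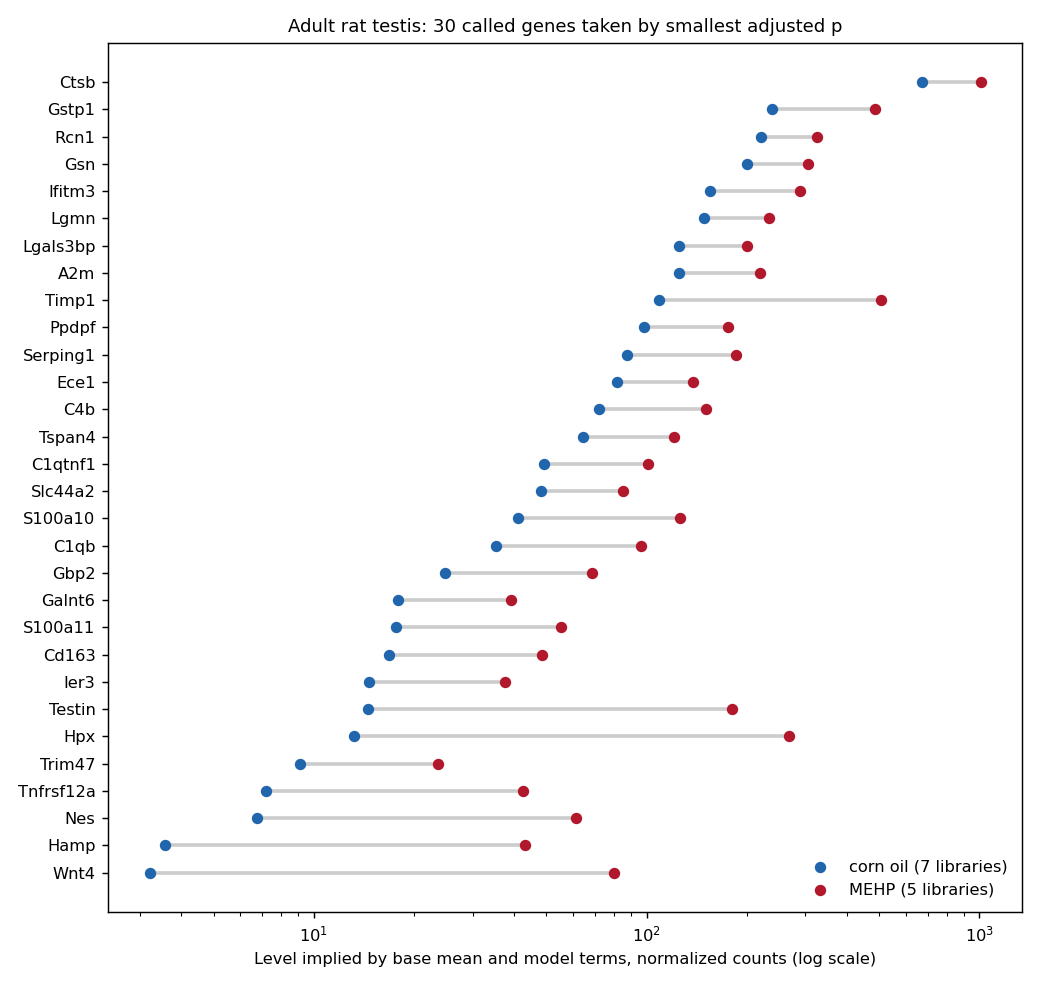
Levels implied for adult corn-oil (blue) and MEHP (red) testis, in normalized counts on a log axis, for 30 called genes taken by smallest adjusted p among those reported, ordered by corn-oil level; a grey line joins the levels of 1 gene. The widest gaps belong to genes that start under 20, among them Wnt4 (3.22 and 79.8) and Hpx (13.2 and 267), while Ctsb starts highest at 670.

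Promoters are shown for 6 of the genes called higher. Of the 121 named genes called higher, 101 matched a promoter in RefSeq by symbol, and the 250 bases before the start of each were searched on both strands for the letters of a STAT site, TTCNNNGAA, an AP-1 site, TGANTCA, and an antioxidant response element, TGACNNNGC, the motif of NRF2. The last can overlap an AP-1 site. A STAT match was present in 9 of the 101 promoters (8.91%), against 6.13% of the 10057 promoters of genes at or above the limit on the base mean and 7.52% of all 27457 promoters. An AP-1 match was present in 11 (10.9%, against 4.47% and 6.36%), and an antioxidant response match in 13 (12.9%, against 12.5% and 10.2%). A match is a run of letters and not a shown site, and the shares were not tested. The 6 genes with the smallest adjusted p among those holding a match are printed 5′ to 3′ from RefSeq (GRCr8), with the matched letters in capitals.
Testin: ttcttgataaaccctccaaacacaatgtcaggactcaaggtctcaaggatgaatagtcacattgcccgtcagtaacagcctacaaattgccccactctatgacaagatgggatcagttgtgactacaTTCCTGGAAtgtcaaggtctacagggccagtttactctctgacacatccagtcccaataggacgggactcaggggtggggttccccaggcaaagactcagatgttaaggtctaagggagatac
Hamp: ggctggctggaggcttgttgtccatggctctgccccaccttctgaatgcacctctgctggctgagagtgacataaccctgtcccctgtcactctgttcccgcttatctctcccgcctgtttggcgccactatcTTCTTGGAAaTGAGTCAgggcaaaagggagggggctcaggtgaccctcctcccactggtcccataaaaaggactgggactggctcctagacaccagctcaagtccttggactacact
Hpx: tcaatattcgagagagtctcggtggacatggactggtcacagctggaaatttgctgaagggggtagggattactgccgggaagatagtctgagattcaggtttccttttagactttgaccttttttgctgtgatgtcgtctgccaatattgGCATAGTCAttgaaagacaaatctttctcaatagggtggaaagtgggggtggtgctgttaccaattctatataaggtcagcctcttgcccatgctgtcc
Gstp1: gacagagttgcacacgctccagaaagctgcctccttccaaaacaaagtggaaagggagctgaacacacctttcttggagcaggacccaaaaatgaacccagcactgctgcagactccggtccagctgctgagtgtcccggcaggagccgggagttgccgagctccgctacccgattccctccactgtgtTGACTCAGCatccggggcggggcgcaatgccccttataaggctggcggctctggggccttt
Timp1: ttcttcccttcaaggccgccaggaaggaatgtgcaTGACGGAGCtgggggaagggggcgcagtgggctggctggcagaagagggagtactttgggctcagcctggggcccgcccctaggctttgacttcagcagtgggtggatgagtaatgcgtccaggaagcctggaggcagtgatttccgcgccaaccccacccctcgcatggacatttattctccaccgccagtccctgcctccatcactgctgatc
Tnfrsf12a: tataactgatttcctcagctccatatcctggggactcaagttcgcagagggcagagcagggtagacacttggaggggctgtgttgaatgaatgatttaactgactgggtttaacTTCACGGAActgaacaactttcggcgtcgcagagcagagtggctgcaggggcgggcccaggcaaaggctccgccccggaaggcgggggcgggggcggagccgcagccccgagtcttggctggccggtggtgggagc
The windows are chr17:3852259-3852508 (plus strand) for Testin, chr1:95300272-95300521 (minus) for Hamp, chr1:169352156-169352405 (minus) for Hpx, chr1:210769706-210769955 (minus) for Gstp1, chrX:3771123-3771372 (minus) for Timp1 and chr10:13213649-13213898 (minus) for Tnfrsf12a, all GRCr8. Testin holds a STAT match that ends 114 bases before the start of the gene, and Tnfrsf12a one that ends 127 bases before it. In Hamp, a gene known to respond to interleukin-6 through STAT3, a STAT match ends 108 bases before the start and an AP-1 match 100 bases before it. In Gstp1 the AP-1 match (54 bases before the start) and the antioxidant response match (52 bases) share letters, and the antioxidant response matches of Hpx and Timp1 end 90 and 206 bases before the start.

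Complement genes, which mark microbes and cell debris for uptake, had the highest median of the 41 lists. Of 22 listed genes 19 were in the table and 15 had a base mean of at least 10; 7 of the 15 rose (0.922% of all genes did), 0 fell, and the median log2 fold change was 0.82, beside -0.03 over all genes. C1qb rose by 1.45 ± 0.26 (adjusted p 4.34e-05) and C1qc by 1.03 ± 0.23 (0.00383) in the authors' deposited table; both encode chains of C1q, which binds the target and starts the classical pathway. The genes of its proteases C1r and C1s rose by 0.63 ± 0.16 (0.0156) and 0.89 ± 0.20 (0.00383), and C4b, the next component, by 1.07 ± 0.23 (0.00172) in the authors' deposited table. Inhibitors rose as well, Serping1, which encodes the C1 inhibitor, by 1.09 ± 0.20 (4.81e-05) and Cd59, which blocks the membrane attack complex, by 0.36 ± 0.09 (0.00765) in the authors' deposited table. The implied level of Serping1 was 87.6 with corn oil and 186 with MEHP, that of C1s 141 and 260, and that of Cd59 1957 and 2520.1. Not called were Cfb, factor B of the alternative pathway (1.24 ± 0.38, adjusted p 0.0936), C4a (0.77 ± 0.23, 0.0797) and C3ar1, the C3a receptor (0.93 ± 0.32, 0.215), in the authors' deposited table. C1qa, the gene of the remaining C1q chain, was at 0.59 ± 0.22 (adjusted p 0.307) and was not called either. C4a and C4b are near copies, and how the authors' counting shared reads between them is not given in the sources used here.

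Of 18 measured genes of heme and iron handling 5 were called higher (0.922% of all genes were) and 0 lower. The median was 0.22, and 0.13 over the 12 members with a base mean of 50 or more. Beside Hpx (4.34 ± 0.66) and Hamp (3.59 ± 0.48), these were Cd163, the macrophage receptor that takes up hemoglobin (1.53 ± 0.30, adjusted p 0.000504), Cp, the ferroxidase ceruloplasmin (0.79 ± 0.21, 0.0208), and Hmox1, the heme oxygenase that breaks heme down (0.40 ± 0.10, 0.0120), in the authors' deposited table. The ferrireductase gene Steap3 was at 1.46 ± 0.42 (adjusted p 0.0637) and the transferrin receptor gene Tfrc at -0.21 ± 0.10 (0.669), neither of them called in the authors' deposited table. Among 14 measured acute phase and protease inhibitor genes, 3 rose and 0 fell, with a median of 0.38: Serping1, A2m, which encodes alpha-2-macroglobulin (0.82 ± 0.17, 0.000672), and the elastase inhibitor gene Serpinb1a (1.68 ± 0.45, 0.0252) in the authors' deposited table. Hpx, Hamp and A2m are also products of liver. The liver genes Alb (-0.38 ± 0.55, p 0.490) and Apoa1 (-0.45 ± 0.49, p 0.368) had base means under the limit and were not called in the authors' deposited table, and their part in these rises was not tested.

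Within interleukin-6 signalling, both receptor chains and a feedback inhibitor rose. Of 16 measured members 3 were called higher (0.922% of all genes were) and 0 lower. The median was 0.23, and 0.08 over the 9 members with a base mean of 50 or more. Il6r, the ligand-binding chain, rose by 1.25 ± 0.29 (adjusted p 0.00603), Il6st, the shared signalling chain gp130, by 0.49 ± 0.13 (0.0347) and Socs3, which shuts the pathway off, by 1.95 ± 0.52 (0.0269) in the authors' deposited table. Il6 itself was at 0.08 ± 0.18 and not called in the authors' deposited table. Stat3, the transcription factor of the pathway, was at 0.67 ± 0.19 (adjusted p 0.0568) and Cebpd, a C/EBP factor gene, at 1.05 ± 0.38 (0.301) in the authors' deposited table, both short of the threshold.

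Of 21 measured genes of NF-kappa-B and tumour necrosis factor signalling, 3 rose (0.922% of all genes did) and 0 fell, with a median of 0.11. These were Tnfrsf12a (2.56 ± 0.45, adjusted p 2.30e-05), Tnip1, an inhibitor of the pathway (0.80 ± 0.18, 0.00310), and the leukocyte adhesion gene Icam1 (1.23 ± 0.33, 0.0331) in the authors' deposited table. The factor genes Nfkb1 (0.45 ± 0.22, adjusted p 0.654) and Rela (0.11 ± 0.07, 0.833) were not called in the authors' deposited table. Interferon and antigen presentation genes had 2 of 20 called higher, 0 lower and a median of 0.23. Gbp2, an interferon-induced GTPase gene, rose by 1.47 ± 0.31 (0.00125) and Irf1, an interferon-responsive transcription factor gene, by 1.13 ± 0.32 (0.0469) in the authors' deposited table, and the call of Irf1 was lost when the adjustment covered every gene with a p (adjusted p 0.0597). Outside that list, and picked after their values were seen, the interferon-inducible genes Ifitm3 rose by 0.90 ± 0.19 (0.00125), Ifitm2 by 0.84 ± 0.19 (0.00301), Gbp7 by 1.01 ± 0.28 (0.0338) and Ube2l6 by 1.02 ± 0.28 (0.0370) in the authors' deposited table. The Ifitm and Gbp genes have close paralogs, so reads may have been shared among them. Of 13 measured cytokines and chemokines, Spp1, which encodes osteopontin, was the 1 called member (1.83 ± 0.41, 0.00301), and Cxcl12 was at 0.74 ± 0.21 (0.0635) in the authors' deposited table. With 1 member called, this says little about the list as a whole.

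Of 26 measured lysosomal genes 5 rose (0.922% of all genes did), all of them genes of lysosomal proteases, 0 fell and 21 were not called. The list had 22 members above 0 (39.3% of all genes were) and a median of 0.30. The 5 were Ctsz (1.11 ± 0.29, adjusted p 0.0217), Ctsl (0.68 ± 0.15, 0.00301), Lgmn, which encodes legumain (0.65 ± 0.14, 0.00125), Ctsb (0.59 ± 0.13, 0.00146) and Ctsa (0.55 ± 0.14, 0.0214) in the authors' deposited table. Their implied levels with corn oil and MEHP were 14.6 and 31.5 for Ctsz, 810 and 1297 for Ctsl, 149 and 233 for Lgmn, 670 and 1010.5 for Ctsb and 114 and 168 for Ctsa. Cd63, a lysosomal membrane protein gene (0.42 ± 0.12, adjusted p 0.0537), and Ctss, a cathepsin of antigen-presenting cells (0.63 ± 0.20, 0.136), were not called in the authors' deposited table, and Tfeb and Npc1 were the members furthest below 0 in the plot of list members. Ctsl is also made by Sertoli cells, so the list is not confined to 1 cell type.

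A minority of macrophage markers was called higher. Of 31 listed markers 25 were measured. Of the 25, 5 rose (C1qb, Cd163, C1qc, Mpeg1 and Clec10a), beside 0.922% of all genes, and 0 fell. Above 0 were 18 (39.3% of all genes were), and the median was 0.47. C1qb and C1qc are also counted among the complement genes and Cd163 among those of heme and iron. Mpeg1, which encodes a pore-forming protein, rose by 0.46 ± 0.12 (adjusted p 0.0252) and the lectin gene Clec10a by 1.10 ± 0.30 (0.0372) in the authors' deposited table, and the folate receptor gene Folr2, found on resident macrophages and outside the list, rose by 1.33 ± 0.29 (0.00280). The general markers were not called, with Cd68 at 0.50 ± 0.34, Csf1r at 0.24 ± 0.24 and Adgre1 at -0.16 ± 0.13 in the authors' deposited table. C1qa was not called either (0.59 ± 0.22). The summed implied level of the 25 markers was 6629 with corn oil and 7076 with MEHP; the share of the complement, lysosomal and iron genes' rise that goes with macrophage number was not tested, and in bulk tissue a change in the number of cells of a type and a change in RNA per cell cannot be told apart. Of 14 measured lymphocyte genes 0 were called in either direction (median 0.00; 0 at an unadjusted p under 0.05, DESeq2). Only 2 of 17 neutrophil and mast cell genes had a base mean of at least 10, and 0 of the 2 were called or had an unadjusted p under 0.05 (DESeq2). The median was -0.56 over the 2 and 0.59 over all 17. Under the limit and not called were S100a8 (3.39 ± 1.11, DESeq2 p 0.00217, adjusted p 0.153) and S100a9 (3.43 ± 1.06, p 0.00116, adjusted p 0.102). Mpo was at 0.96 ± 1.17 (DESeq2 p 0.412). The implied levels of S100a8 and S100a9 were 0.43 and 0.58 with corn oil and 4.54 and 6.23 with MEHP.

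All 15 measured genes of the annexin and S100 families, which encode calcium-dependent membrane and cytoskeleton binding proteins, were above 0, 4 of them called and 0 lower, with a median of 0.41. Over all genes 39.3% were above 0 and 0.922% were called higher. S100a10 rose by 1.62 ± 0.28 (adjusted p 6.90e-06) and Anxa2, whose protein it binds, by 0.76 ± 0.17 (0.00430) in the authors' deposited table. S100a11 rose by 1.65 ± 0.35 (0.00125) and S100a4 by 1.55 ± 0.36 (0.00480) in the authors' deposited table. Implied levels of S100a10 were 41.1 and 126 and those of Anxa2 168 and 283, with corn oil and MEHP. S100a6 (0.65 ± 0.20, adjusted p 0.102), Anxa6 (0.41 ± 0.14, 0.186) and Anxa11 (0.28 ± 0.10, 0.211) were the next members in the authors' deposited table.

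**Figure D3:**
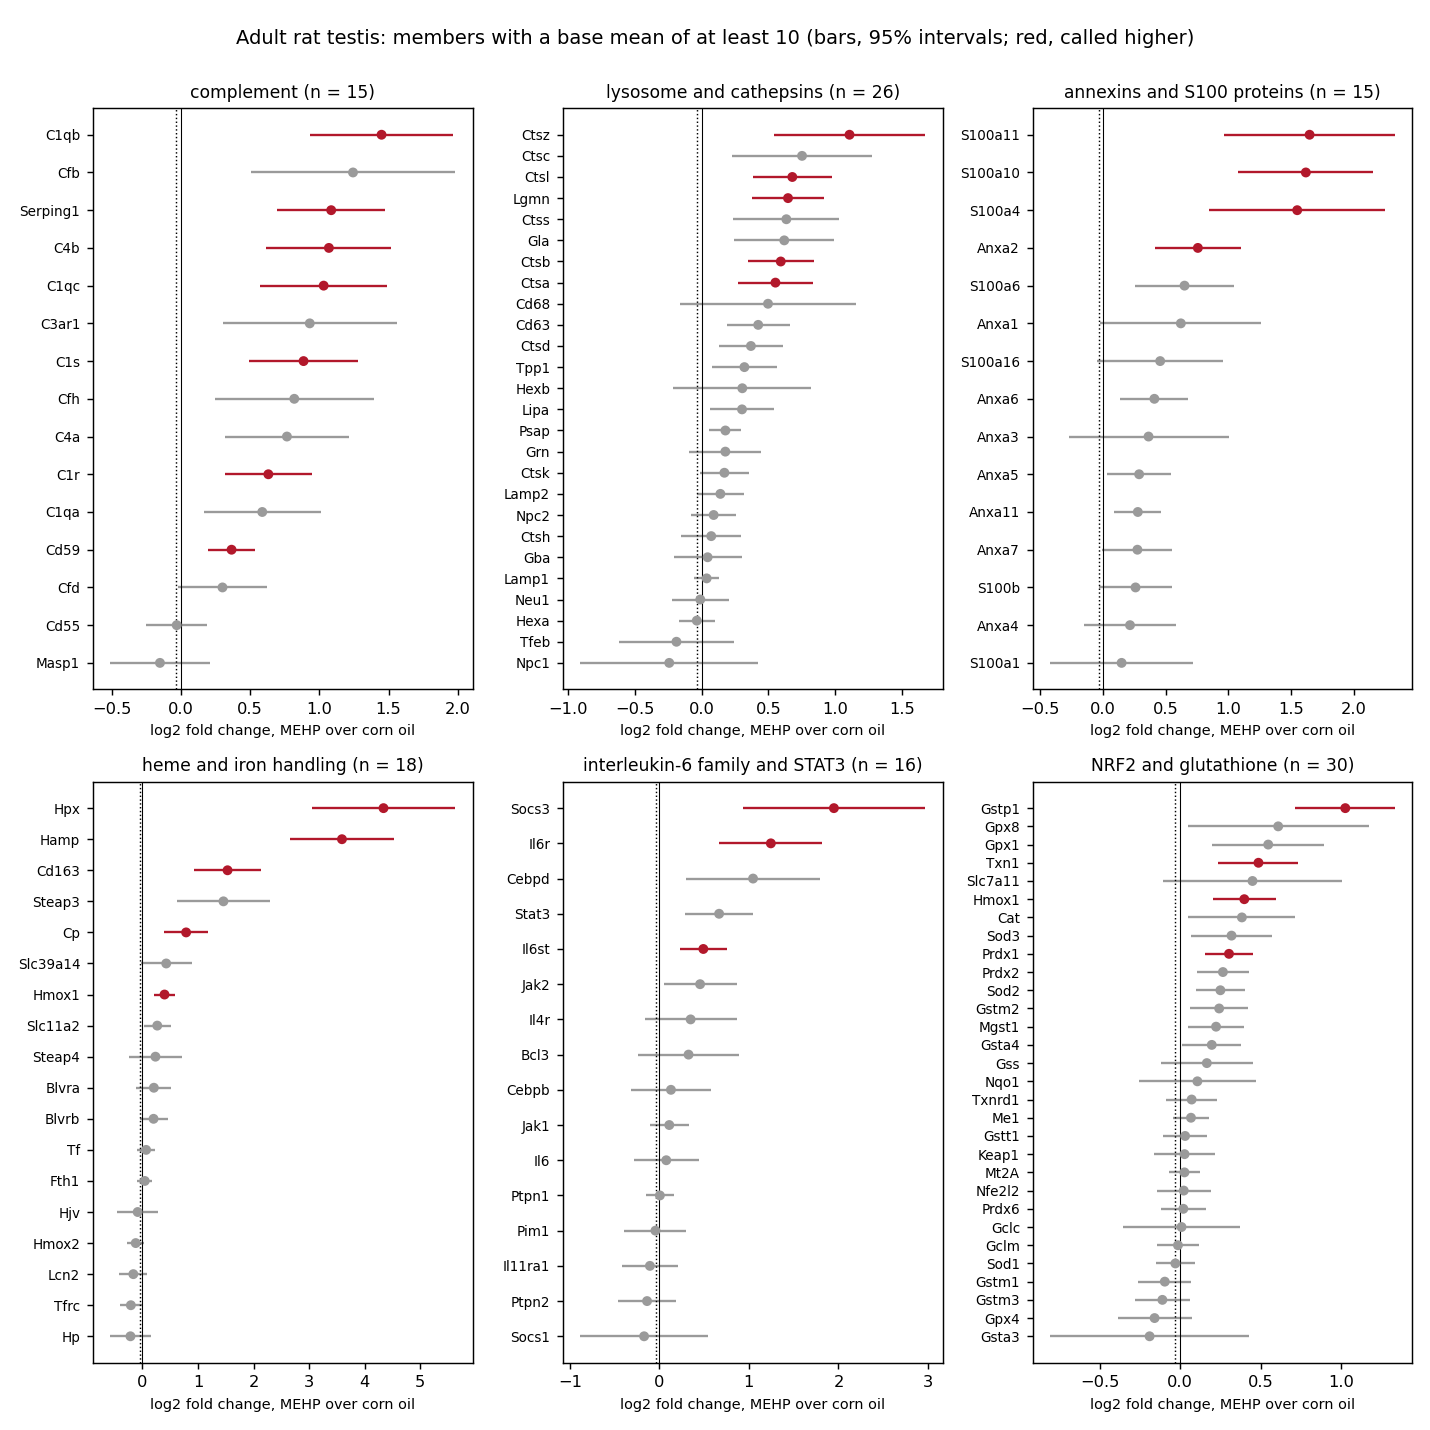
Log2 fold change of MEHP over corn oil with 95% intervals for the measured members of 6 gene lists; red members were called higher and grey ones were not called, the solid line marks 0 and the dotted line the median of all genes (-0.03). Complement members reach 1.45 with 7 of 15 called, all 15 annexin and S100 members lie above 0, and Hpx (4.34) and Hamp (3.59) stand far above the rest of the heme and iron list.

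Genes of actin filaments and tubulin had 4 of 30 measured members called higher (0.922% of all genes were), 0 lower, and a median of 0.13. Myh9, a non-muscle myosin heavy chain gene, rose by 0.84 ± 0.19 (adjusted p 0.00483), Tpm4, a tropomyosin gene, by 1.03 ± 0.28 (0.0274), Rhoc, a small GTPase gene, by 0.68 ± 0.17 (0.0186) and Tubb3 by 0.41 ± 0.10 (0.00740) in the authors' deposited table. Called genes outside the list, picked after their values were seen, included Arpc1b, a subunit of the Arp2/3 complex (0.70 ± 0.17, 0.0136), the coactosin gene Cotl1 (0.71 ± 0.17, 0.00953), the cofilin phosphatase gene Ssh3 (1.11 ± 0.28, 0.0156) and Pdlim4 (0.66 ± 0.19, 0.0454) in the authors' deposited table. The call of Pdlim4 was lost when the adjustment covered every gene with a p (adjusted p 0.0577). Of 14 measured intermediate filament and desmosome genes, Nes was the 1 called (3.18 ± 0.48, 1.67e-07), while Vim, which encodes the vimentin of Sertoli cells, was at 0.31 ± 0.12 (0.454) in the authors' deposited table. The keratin gene Krt79 (1.46 ± 0.37, 0.0128) and the neurofilament gene Nefh (1.70 ± 0.42, 0.0129) also rose in the authors' deposited table, from implied corn-oil levels of 6.86 and 5.86. Both are outside the list and were picked after their values were seen. Of 24 measured junction genes of the blood-testis barrier 0 were called, with a median of 0.07. At an unadjusted p under 0.05 (DESeq2) 6 of them were higher and 1 lower, beside 4.33% and 3.2% of all genes.

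In the list of neuropeptide and neuronal genes, 4 of 13 measured members rose (0.922% of all genes did) and 0 fell. The median was 0.36, and 0.01 among the 6 members with a base mean of 50 or more. They were Nes, Calca, Tubb3 and Vgf, a secreted neuropeptide precursor gene (1.60 ± 0.44, adjusted p 0.0353), in the authors' deposited table. Nes is also counted among the intermediate filament genes and Tubb3 among those of actin and tubulin. Calca had implied levels under 10 in both adult groups and reached the limit through the peripubertal rats, so it adds little to this count. Pdyn, which encodes the opioid precursor prodynorphin, rose by 1.25 ± 0.29 (0.00462), and Pam, which encodes the enzyme that amidates peptide hormones, by 0.90 ± 0.22 (0.00765) in the authors' deposited table. Pdyn and Pam are outside the list and were picked after their values were seen. The implied level of Vgf was 33.5 with corn oil and 102 with MEHP, that of Pdyn 30.2 and 71.8 and that of Pam 106 and 198.

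Antioxidant genes rose in part. Of 30 measured NRF2 and glutathione genes 4 rose, 0 fell, 13 were higher at an unadjusted p under 0.05 (DESeq2), and the median was 0.14. Over all genes, 0.922% were called higher and 4.33% were higher at an unadjusted p under 0.05 (DESeq2). Gstp1 rose by 1.03 ± 0.16 (adjusted p 2.46e-07), the thioredoxin gene Txn1 by 0.49 ± 0.13 (0.0207), Hmox1 by 0.40 ± 0.10 (0.0120) and the peroxiredoxin gene Prdx1 by 0.30 ± 0.07 (0.0105) in the authors' deposited table. The glutathione peroxidase gene Gpx1 was at 0.55 ± 0.18 (0.146) in the authors' deposited table. The classical NRF2 targets Nqo1 (0.11 ± 0.18), Gclc (0.01 ± 0.18) and Gclm (-0.01 ± 0.07) were not called in the authors' deposited table. Outside the list, and picked after their values were seen, the carbonyl reductase gene Cbr1 rose by 0.32 ± 0.07 (0.00382), Ugdh, which makes the sugar donor for glucuronidation, by 1.08 ± 0.28 (0.0230), and the aldo-keto reductase genes Akr7a3 by 0.52 ± 0.15 (0.0415) and Akr1b8 by 0.67 ± 0.19 (0.0484) in the authors' deposited table. The calls of Akr7a3 and Akr1b8 were lost when the adjustment covered every gene with a p (adjusted p 0.0527 and 0.0615). Nr1i3, which encodes the xenobiotic receptor CAR, rose by 1.46 ± 0.35 (0.00765) in the authors' deposited table, from an implied level of 5.50 to 15.1.

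Other called genes fell outside the lists, 74 in all with an established symbol. Secreted and cell surface proteins included Lgals3bp, a galectin-3-binding protein gene (0.67 ± 0.14, adjusted p 0.00161), Tgm2, a protein-crosslinking enzyme gene (0.77 ± 0.20, 0.0156), Ecm1 (0.79 ± 0.22, 0.0338) and the interleukin-17 receptor gene Il17re (1.28 ± 0.29, 0.00421) in the authors' deposited table. The neonatal Fc receptor gene Fcgrt (0.64 ± 0.16, 0.0156), the class I gene RT1-CE16 (0.58 ± 0.15, 0.0195) and Ifi30, a thiol reductase gene of antigen processing (0.78 ± 0.19, 0.00844), rose in the authors' deposited table; class I genes of the rat are many and alike, so RT1-CE16 may share reads. Genes of metabolism included Slc25a4, the mitochondrial ADP/ATP carrier (0.39 ± 0.09, 0.00462), the purine enzymes Aprt (0.67 ± 0.16, 0.00953) and Paics (0.41 ± 0.11, 0.0230), and Taldo1 of the pentose phosphate pathway (0.52 ± 0.14, 0.0230) in the authors' deposited table. The ubiquitin ligase genes Trim47 and Trim2 rose by 1.37 ± 0.30 (0.00172) and 1.34 ± 0.29 (0.00245) in the authors' deposited table. A further 8 called genes had no established symbol, all higher with MEHP.

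Most Sertoli genes were not called. Of 23 measured markers 3 rose (0.922% of all genes did), among them Testin (3.63 ± 0.41) and Ctsl (0.68 ± 0.15) in the authors' deposited table, and 0 fell. Over all genes, 4.33% were higher and 3.2% lower at an unadjusted p under 0.05 (DESeq2), and 39.3% were above 0. Of the Sertoli markers, 6 were higher and 1 lower at that p, and 17 were above 0. Their median was 0.07, or 0.12 over the 19 members with a base mean of 50 or more. The defining genes were not called, with Clu at 0.14 ± 0.06 (95% interval 0.03 to 0.25), Sox9 at -0.01 ± 0.11 (-0.22 to 0.20), Wt1 at -0.09 ± 0.10 (-0.29 to 0.11) and Fshr at 0.00 ± 0.31 (-0.60 to 0.60) in the authors' deposited table. Aard was at 0.22 ± 0.06 (adjusted p 0.0570), Cldn11, the tight junction gene, at 0.22 ± 0.08 (0.218) and Inhbb, an inhibin subunit gene, at -0.43 ± 0.14 (0.141) in the authors' deposited table. All 14 measured myoid and smooth muscle genes were above 0 with a median of 0.15, and Myl9, a myosin light chain gene, was the 1 called (0.34 ± 0.09, 0.0351) in the authors' deposited table. Of 20 measured Leydig genes 0 were called (1 higher and 0 lower at an unadjusted p under 0.05, DESeq2), with 13 above 0 and 7 below. Star was at 0.16 ± 0.26, Hsd3b1 at 0.24 ± 0.24, Cyp17a1 at 0.04 ± 0.38 and Insl3 at 0.04 ± 0.17 in the authors' deposited table. Below 0 were Cyp11a1 (-0.39 ± 0.39) and Lhcgr (-0.21 ± 0.16). The intervals of these markers were wide enough to hold changes in either direction. Endothelial genes had a median of 0.47 over 11 measured members, 0 of them called (2 higher at an unadjusted p under 0.05, DESeq2), and a median of -0.07 over the 2 members with a base mean of at least 50.

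Germ cell genes lay slightly below 0 with none called. All 22 measured genes of elongating spermatids were below 0 (median -0.11, range -0.24 to -0.04). So were 18 of 20 of round spermatids (median -0.09) and 20 of 27 of spermatocytes (median -0.05). Over all genes, 8490 of 13987 were below 0 and the median was -0.03. It was -0.04 at a base mean of 300 to 1000 and -0.05 above 1000, and the spermatocyte median lay near these values. At an unadjusted p under 0.05 (DESeq2) 0 genes of the spermatid lists and 3 lower genes of the 27 in the spermatocyte list passed. Over all genes, 3.2% were lower and 4.33% higher at that p. The protamine gene Prm2 was at -0.12 ± 0.12, Odf2 of the sperm tail at -0.10 ± 0.09 and Tnp1 at -0.10 ± 0.35 in the authors' deposited table; Tnp2, at -0.17, had an SE of 1.15, so its value says little. Among spermatocyte genes Syce3 of the synaptonemal complex was at -0.19 ± 0.07 (adjusted p 0.254) and Sycp3 at -0.05 ± 0.06 in the authors' deposited table. Genes of spermatids were also the most abundant in the tissue, the 22 of elongating spermatids with a summed implied level of 267715 with corn oil and 247473 with MEHP. The 12 measured spermatogonial genes had a median of -0.04, with 0 called (2 higher and 1 lower at an unadjusted p under 0.05, DESeq2).

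**Figure D4:**
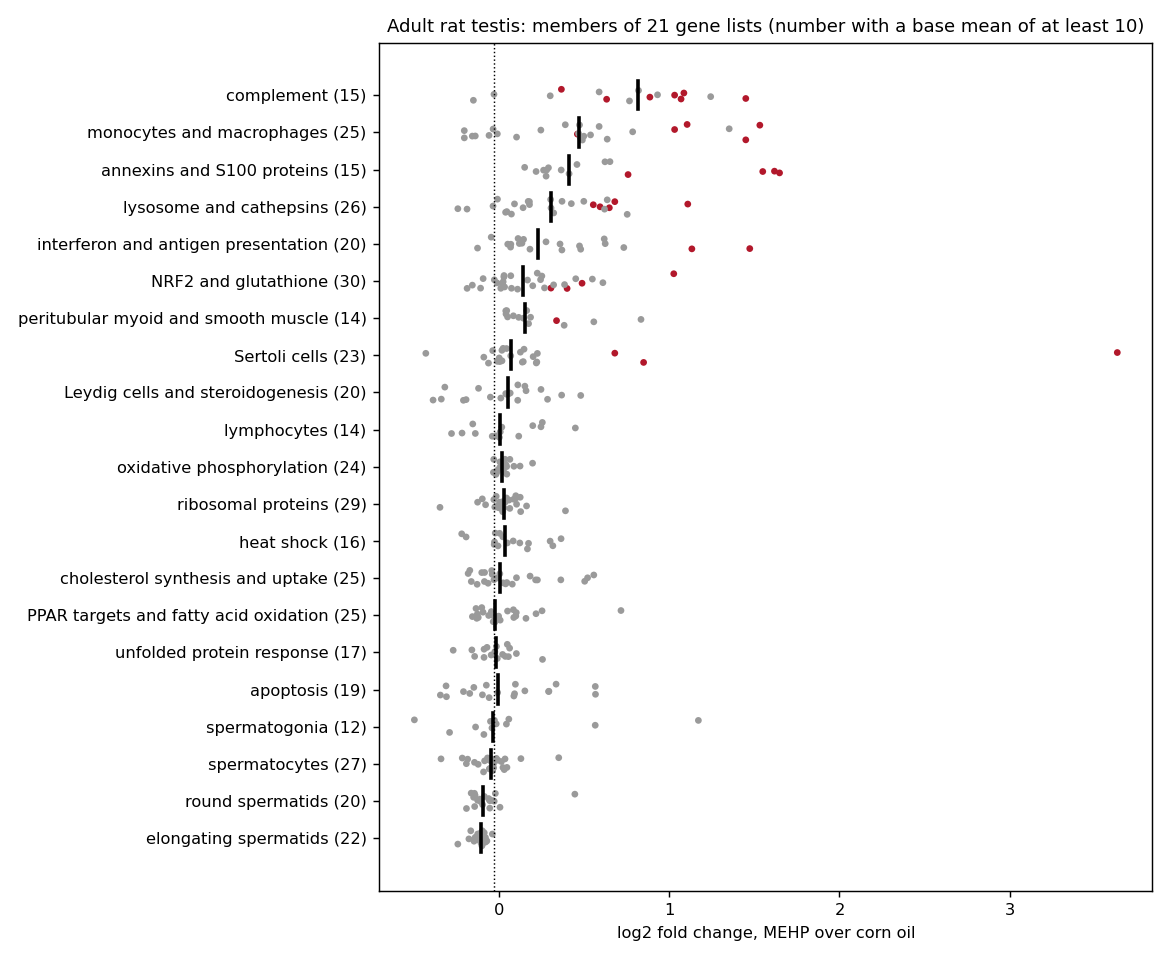
Log2 fold change of MEHP over corn oil for the measured members of 21 gene lists; each point is a gene (red, called higher; grey, not called), the black bar is the list's median and the dotted line the median of all genes (-0.03). Medians run from 0.82 for complement down to -0.11 for elongating spermatids, and the plotted lists with no red point include oxidative phosphorylation, ribosomal proteins, heat shock, the unfolded protein response, apoptosis and the 4 lists of germ cells.

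Several further lists held no called gene in the authors' deposited table, by the same DESeq2 test. With 0.922% of all genes called higher, and 4.33% higher and 3.2% lower at an unadjusted p under 0.05, lists of this size hold few or no called genes at the background share, so these zeros are not a result about the pathways. Of 25 measured targets of the peroxisome proliferator-activated receptors (PPAR), the nuclear receptors that MEHP is known to activate in liver, 0 were called and 2 were higher at an unadjusted p under 0.05, with a median of -0.03; in the authors' deposited table Angptl4 was at 0.72 ± 0.29 (adjusted p 0.458). Apoptosis genes had 0 of 19 called and 0 at an unadjusted p under 0.05 (median -0.01), and targets of p53 had 0 of 14 called and 2 higher at an unadjusted p under 0.05 (median 0.08). The heat shock list had 0 of 16 called and 1 higher at an unadjusted p under 0.05 (median 0.03), and the unfolded protein response list had 0 of 17 called and 0 at an unadjusted p under 0.05 (median -0.02). Oxidative phosphorylation (0 of 24 called, 0 at an unadjusted p under 0.05, median 0.02) and ribosomal proteins (0 of 29 called, 1 higher at an unadjusted p under 0.05, median 0.03) lay near the median of all genes. Cholesterol synthesis and uptake had 0 of 25 called, with 4 higher and 1 lower at an unadjusted p under 0.05 and a median of 0.00; Apoe was at 0.50 ± 0.17 (0.206) and Soat1 at 0.36 ± 0.12 (0.153) in the authors' deposited table. Immediate early genes had 0 of 15 called and 3 higher at an unadjusted p under 0.05 (median 0.09), with Klf6 next to the threshold at 0.55 ± 0.16 (0.0504) in the authors' deposited table. Collagen and matrix genes had 0 of 25 called, 8 higher and 1 lower at an unadjusted p under 0.05 and a median of 0.16, with Sparc at 0.37 ± 0.11 (0.0932) in the authors' deposited table. Wnt4 was the 1 called gene of 25 measured members of the Wnt pathway, whose median was -0.03. An uncalled list does not show that its genes were unaltered: the 95% interval of Angptl4, for example, ran from 0.15 to 1.28 on the log2 scale.

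The authors tested gene ontology (GO) terms by the rank of their genes in the same statistic. In the authors' deposited table of terms, 460 of 3806 biological processes (12.1%), 55 of 646 cellular components (8.51%) and 47 of 965 molecular functions (4.87%) had an adjusted p under 0.05. The smallest adjusted p of each ontology belonged to immune system process (2.77e-19), extracellular space (1.59e-27) and signaling receptor binding (1.26e-13) in the authors' deposited table. The GO tables give no direction, so the direction of the 10 leading terms of each ontology was read from the Wald statistics of their genes. Over all 21351 genes with an estimate, 3.26% had a statistic above 2 and 2.18% one below -2. Inflammatory response had 43 of 375 genes above 2 (11.5%) and 5 below -2, led among genes over the limit by Hamp, A2m, C4b, Spp1 and Il17re. Extracellular space had 135 of 1233 above 2 (10.9%) and 20 below, led by Testin, Wnt4, Hamp, Hpx and Timp1. Extracellular matrix binding had 13 of 61 above 2 (21.3%) and 0 below -2, led by Spp1, Anxa2, Adgrg1, Ecm1 and Sparc.

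Terms of cilia, centrioles and the nucleus leaned the other way. Cilium had 5 of 380 genes above 2 (1.32%) and 10 below -2 (2.63%, beside 2.18% of all genes). Its median statistic was -0.54, beside -0.10 over all 21351 genes with an estimate, those under the limit included. Median log2 fold changes also fell with level, from -0.01 at a base mean of 10 to 30 to -0.05 above 1000. The part of level in the medians of these terms was not tested. Centriole had 0 of 133 above 2 and 7 below -2 (median -0.66), with Tedc1 at -0.22 ± 0.09 (adjusted p 0.412), Mdm1 at -0.20 ± 0.07 (0.297) and Cep290 at -0.14 ± 0.07 (0.602) in the authors' deposited table. Ciliary basal body (median -0.63), microtubule organizing center (-0.41), nuclear body (-0.29), chromatin binding (-0.32) and ubiquitin-like protein transferase activity (-0.42) also had negative medians. Below -2 were 5.72% of ubiquitin-like protein transferase activity, 5.26% of centriole and 3.06% of nuclear body. Cilium (2.63%), chromatin binding (2.57%), ciliary basal body (2.41%) and microtubule organizing center (2.39%) lay near the 2.18% of all genes. None of these 7 terms held a gene called lower, and 4 held genes called higher, with 3 in nuclear body, 3 in ubiquitin-like protein transferase activity, 2 in cilium and 2 in chromatin binding. Catsperg, a subunit gene of the sperm calcium channel, had the largest statistic in size among the cilium genes over the limit (-0.21 ± 0.07, adjusted p 0.201) in the authors' deposited table. Smaller called terms with a large share of genes past 2 in either direction were complement binding (8 of 19 genes, adjusted p 0.0399), myosin heavy chain binding (6 of 11, 0.0218), S100 protein binding (5 of 14, 0.0224), melanosome, a term for lysosome-related organelles (22 of 84, 1.56e-05), and regulation of apoptotic cell clearance (5 of 10, 0.00160) in the authors' deposited table.

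**Figure D5:**
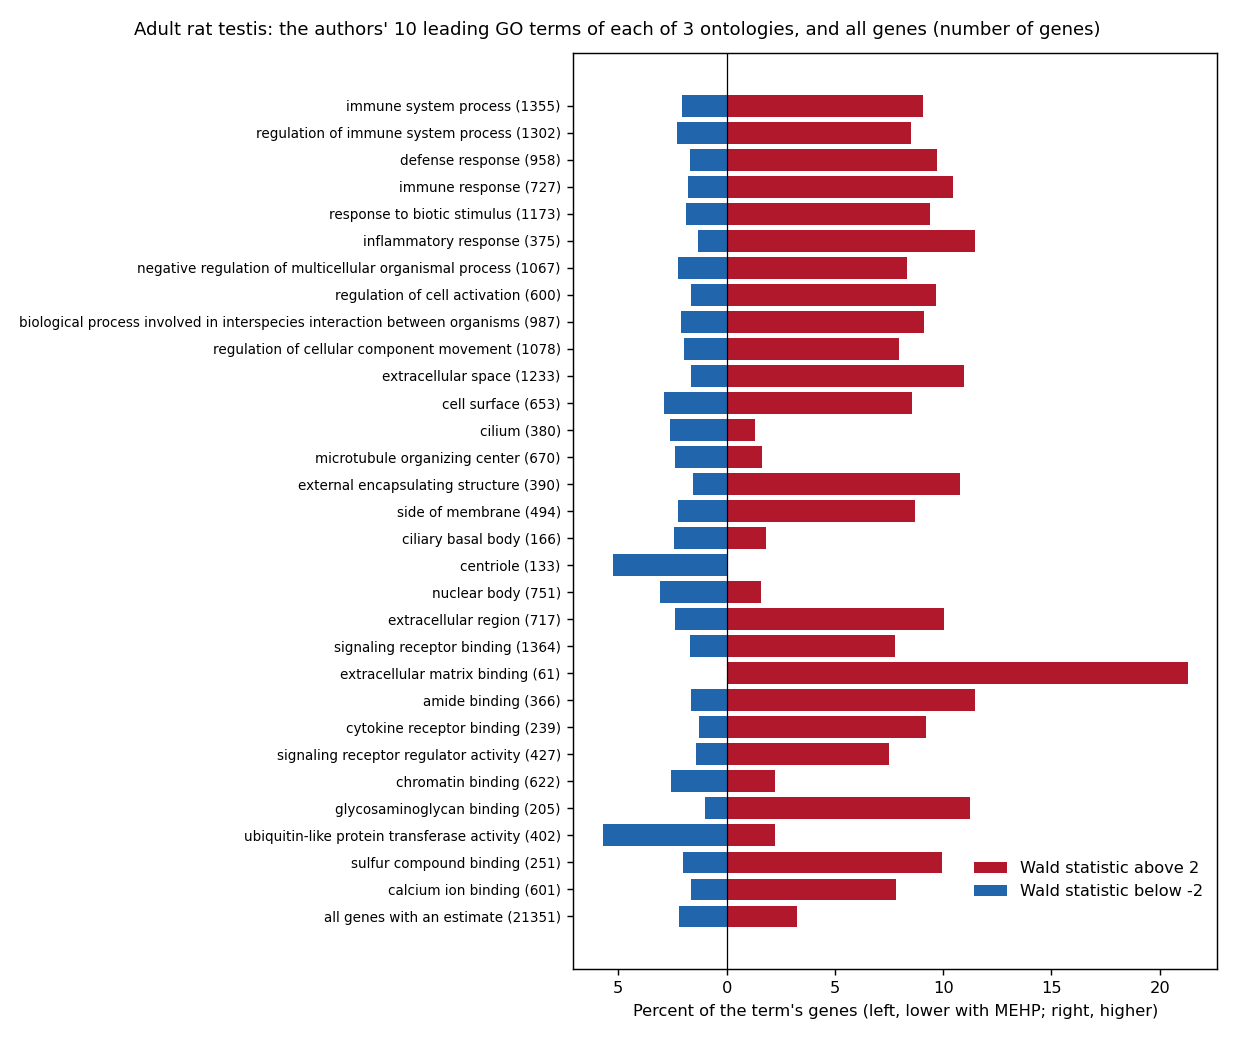
Percent of genes with a Wald statistic above 2 (red, right) or below -2 (blue, left) in the 10 leading GO terms of each of 3 ontologies, with the number of genes of each term in brackets, and in all 21351 genes at the bottom. Immune and extracellular terms extend to the right, extracellular matrix binding furthest at 21.3%. Extending further left than right are cilium, ciliary basal body, centriole, microtubule organizing center, nuclear body, chromatin binding and ubiquitin-like protein transferase activity.

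The authors' age by treatment term tested whether a gene's response differed from that of peripubertal rats. In the authors' deposited table, 17 of 14319 genes passed for that term (0.119%), and 4 of these were called in the adult rats: Wnt4, Hamp, Gstp1 and Tmem131l. The term is the peripubertal minus the adult effect, so picking genes by their adult calls favours terms against the adult direction. It was -2.84 ± 0.65 for Wnt4 (adjusted p 0.0163), -2.57 ± 0.58 for Hamp (0.0163) and -0.91 ± 0.21 for Gstp1 (0.0179) in the authors' deposited table. The implied peripubertal levels with corn oil and MEHP were 51.8 and 180 for Wnt4, 16.8 and 34.0 for Hamp, and 428 and 464 for Gstp1, so their adult rises began from lower levels. The other called genes named above with a base mean over the limit did not pass for this term, which does not show that they responded alike at both ages.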

How the data were processed

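Tag-seq was run on testis RNA of adult rats, in 7 corn-oil and 5 MEHP libraries, grouped by the titles in the labels. Per the submitters' processing notes, FastQC, Bowtie2, DESeq2 and DESeq were used, with Rnor_6.0 for the rat; versions, counting rule and strand setting: not given in the sources used here. Per the file headers, the authors deposited for each gene a base mean (a signal on the normalized count scale), a log2 fold change with SE, a Wald statistic (a score), a p-value and an adjusted p-value for age, treatment and their interaction. The treatment term is the adult effect. The authors also deposited GO term tables, with the number of genes, a p-value and an adjusted p-value per term. Since the deposited values are per comparison and not per library, depth is unknown and no model was refitted.

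From these, calls (adjusted p under 0.05), 95% intervals, implied levels and alternative adjustments were computed with Python 3.11.15, pandas 2.3.3, numpy 2.4.6 and scipy 1.17.1 and tested on simulated data. The implied levels assume that the base mean averages all 26 rat libraries equally. The 41 gene lists hold 1040 entries, of which 975 matched a symbol and 776 had a base mean of at least 10; a repeated symbol is represented by the row with the highest base mean. The limit on the base mean covers all rat groups, so a gene can pass it through the group where it is high. The lists, members and tests were chosen with earlier results of these data known. Named genes were every called gene, up to 3 uncalled members of each list by smallest p, the genes next to the threshold, cell type markers and the leading members of GO terms; Il6, Nqo1, Gclc, Gclm, Tfeb and Npc1 were named after their values were seen. A result on 1 called gene is not reported here. The direction of GO terms was planned from a rank difference that the tables used here do not hold, so terms were counted without direction, and that of leading terms was read from gene statistics. Promoters are RefSeq's, from GRCr8, matched by symbol.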

Additional observations from a re-analysis of the deposited data

Results flagged for a closer look

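In 4 genes called in the adult rats, the authors' age by treatment term, a test of the difference itself, passed an adjusted p under 0.05 (DESeq2). On the log2 scale, in the authors' deposited table, the peripubertal effect minus the adult effect was -2.84 for Wnt4, -2.57 for Hamp, -0.91 for Gstp1 and 0.45 for Tmem131l. The derived peripubertal effects of Wnt4, Hamp and Gstp1 were 1.80, 1.02 and 0.12, smaller than their adult effects on this scale. The term holds the adult effect with its sign reversed. Picking genes by their adult calls therefore favours terms against the adult direction. For Tmem131l, the adult effect was -0.27 and the derived peripubertal effect 0.18. Of the 14319 genes tested for this term, 17 passed.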

How the results depend on the processing

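The 129 higher calls became 31 with Holm's adjustment, 19 under a t distribution (22 degrees of freedom) and 72 at an adjusted p under 0.01. The 3 lower calls became 0 with Holm's adjustment, 0 with the t distribution (448 lower genes had an unadjusted p under 0.05 in DESeq2), 11 at an adjusted p under 0.1 and 1 under 0.01. Benjamini-Hochberg adjustment over every gene with a p gave 119 higher and 2 lower, and over a base mean of at least 10 gave 133 and 3. Called GO terms went from 460 to 267 (adjusted p under 0.01) and 118 (Holm) for biological processes, from 55 to 89 (under 0.1), 33 (under 0.01) and 21 (Holm) for cellular components, and from 47 to 73 (under 0.1), 28 (under 0.01) and 17 (Holm) for molecular functions. Of 124 named called genes, 114 kept their call when every gene with a p was adjusted together, 28 under Holm and 17 under the t distribution. No direction of a called gene reversed, since these alternatives leave the fold change as it is. Of 410 settings of the lists' counts, 42 moved by over 1.5 times. Of 81 settings of the lists' medians (members whose base mean reached 50, or every member with an estimate), 11 changed sign and another 20 moved by over 1.5 times. Over members whose base mean reached 50, the median changed from 0.29 to 0.05 for cytokines, 0.08 to -0.07 for p53 targets, 0.47 to -0.07 for endothelium, 0.10 to -0.02 for metalloproteinases and -0.03 to 0.11 for the Wnt pathway. Over every member, it changed from -0.56 to 0.59 for neutrophils and -0.01 to 0.08 for apoptosis. The t distribution and Holm leave fewer calls by construction. Depth per library is unknown. No paired analysis was possible because the deposited tables hold no values per library; leaving out each library in turn was not run for the same reason.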

Other observations

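A further 8 genes were called higher in the authors' deposited table with a base mean under 10. The islet-derived lectin gene Reg3b, a target of interleukin-6 family cytokines, was at 5.99 ± 1.36 on the log2 scale (adjusted p 0.00383, DESeq2) in the authors' deposited table, with implied levels of 0.241 in corn-oil and 15.3 in MEHP testis. Tfr2, an iron sensor upstream of hepcidin in liver, was at 2.66 ± 0.61 (0.00462), and Gpx2, a glutathione peroxidase gene and known NRF2 target, at 3.43 ± 0.88 (0.0174) in the authors' deposited table. Hsd11b2, whose enzyme inactivates glucocorticoids, was at 2.69 ± 0.62 (0.00480), and Il13ra2, a decoy receptor gene, at 3.18 ± 0.90 (0.0484) in the authors' deposited table. Ly6h (3.95 ± 0.95, 0.00765), Sstr3, a somatostatin receptor gene (2.08 ± 0.58, 0.0451), and Scn3b, a sodium channel subunit gene (1.84 ± 0.39, 0.00149), complete the set in the authors' deposited table. Their implied corn-oil levels were between 0.241 and 5.85 normalized counts, so the fold changes rest on low levels in that group. The 8 called genes with no established symbol and a base mean of at least 10 were all higher, by 0.36 to 1.41 on the log2 scale in the authors' deposited table.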
